A study of Mus musculus with 8 samples.

Results

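The D/F-titled samples are 4 of the 8 mouse B-lymphoid samples of a series on c-JUN and Cdk6 in lymphoid leukemia driven by the fusion kinase BCR-ABL. They were chosen by title: D1 and D6 carry the genotype label c-jun knock out, and F2 and F4 the label wild type. Transcript levels came from 1 Affymetrix MoGene 1.0 ST array per sample, with probes along each transcript, and the other 4 samples, titled RO35 and RO38 (knockout) and RO36 and RO37 (wild type), were used only for comparison. The strain label is SW129/C57BL/6J throughout, and no treatment, time or age is given. Which part of Jun was deleted and by what means is not given in the labels, nor is the presence of BCR-ABL, nor whether samples of a genotype came from separate animals or cultures. Each p-value thus reflects only the scatter among these arrays, possibly technical in origin, and with 2 samples a side the number of arrays limits the precision.

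Jun encodes c-JUN, a subunit of the AP-1 transcription factor, which pairs with FOS, JUN and ATF relatives and binds short palindromic DNA motifs near its target genes. Cdk6 encodes a kinase that acts with D-type cyclins to move cells from G1 into S phase, and lymphoid cells rely on it more than most cells. CpG-rich promoters such as that of Cdk6 are commonly unmethylated when active, and methylation of such stretches goes with silencing.

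The sequences before the start sites of 3 genes that separated the genotypes are shown because the series concerns AP-1 and methylation near Cdk6. All come from RefSeq on the build GRCm38.p6 and cover the 250 bases before the start site, 5′ to 3′ on the gene's strand. For Jun (chr4:95052223-95052472, minus strand) the capitals mark TGACATCA, a variant AP-1 motif of the Jun promoter that begins at position -45 from the start.
Jun: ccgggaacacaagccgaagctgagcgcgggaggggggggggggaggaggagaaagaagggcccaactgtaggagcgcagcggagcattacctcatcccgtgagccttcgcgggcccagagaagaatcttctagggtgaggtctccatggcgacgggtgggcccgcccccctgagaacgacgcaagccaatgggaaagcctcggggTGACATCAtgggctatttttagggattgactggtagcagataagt
For Cdk6 (chr5:3343643-3343892, plus strand) the capitals mark CG dinucleotides.
Cdk6: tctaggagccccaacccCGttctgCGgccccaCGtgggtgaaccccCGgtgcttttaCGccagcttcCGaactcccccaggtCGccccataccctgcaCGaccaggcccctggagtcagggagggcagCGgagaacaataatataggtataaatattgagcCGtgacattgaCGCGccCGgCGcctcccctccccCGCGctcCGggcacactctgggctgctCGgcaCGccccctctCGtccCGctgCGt
For P2ry14 (chr3:59153493-59153742, minus strand), 1 of its 4 annotated starts, the capitals mark a match to the AP-1 motif TGANTCA, which begins at position -202 from the start.
P2ry14: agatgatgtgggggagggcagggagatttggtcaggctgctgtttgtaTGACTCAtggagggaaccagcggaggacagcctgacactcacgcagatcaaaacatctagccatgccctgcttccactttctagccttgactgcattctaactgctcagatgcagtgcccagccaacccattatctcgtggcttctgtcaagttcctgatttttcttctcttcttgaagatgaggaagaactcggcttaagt
The Cdk6 window holds 22 CG dinucleotides against a median of 6 over 32851 windows, and 14.8% of windows hold at least as many. It holds no match to TGANTCA, TGACGTCA or TGACATCA. Searched on both strands, TGANTCA is in 6.75% of all windows, TGACGTCA in 1.55% and TGACATCA in 2.93%. Counted by gene, a window of 7.12%, 2.33% and 2.55% of the 15613 tested genes with a window holds them. Among the 24 genes that separated the genotypes as described below and have a window, 1 (4.17%) holds each motif: P2ry14 holds TGANTCA, 3830406C13Rik holds TGACGTCA and Jun holds TGACATCA. A match describes letters and not a bound site.

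Genes that define B-lymphoid cells were high in all 4 samples: Cd79a, a signalling chain of the B-cell receptor, was at 13.18 in D1, 13.21 in D6, 13.08 in F2 and 13.18 in F4 on the log2 scale. Igll1, part of the surrogate light chain of precursor B cells, was at 13.95, 13.82, 13.96 and 13.97 in the same order. Of 29 measured myeloid markers, 4 to 6 lay above the median of the tested genes in each sample, and of 27 T and NK cell markers 3 to 7 did. Cd3e, a T-cell receptor chain, was between 7.10 and 7.57. This was close to the array medians, taken over all probe sets, of 6.99 to 7.42. In this bulk RNA, fewer cells of a type and less RNA per cell cannot be told apart. F2 stood apart: it correlated with the other 3 arrays at Pearson r = 0.965 to 0.972, whereas the pairs without it had 0.977 to 0.979. It also had the highest array median (7.42), and F4 the lowest (6.99). Xist, the RNA of the inactive X chromosome, was at 6.00 in D6 but at 11.74 in D1, 11.16 in F2 and 11.93 in F4, and the Y-linked gene Eif2s3y was at 4.88 to 5.30 in all 4.

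The targeted gene, Jun (probe set 10514466), was at 7.02 in D1 and 6.97 in D6 against 10.55 in F2 and 8.77 in F4. Both knockout signals lay just under their array medians of 7.22, and the genotypes did not overlap. The level was 6.34-fold lower in knockout samples (log2 difference -2.67 ± 0.36, SE of the limma fit, adjusted p = 9.71e-05 with limma and Benjamini-Hochberg adjustment). The wild-type samples differed from each other by 1.78, and without F2 the difference between genotypes was -1.77. Whether the probes lie in the deleted part is not known.

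Cdk6 (probe set 10519324) was at 10.11 in D1 and 6.79 in D6, and at 11.50 in F2 and 11.58 in F4. The wild-type samples were nearly equal, whereas D1 lay 3.31 log2 units above D6, the only one of the 4 samples with Cdk6 below its array median. The mean level was 8.50-fold lower in knockout samples (log2 difference -3.09 ± 0.47, limma adjusted p = 0.000275), a size carried mostly by D6: without D6 the difference was -1.43 and without D1 it was -4.74. This SE and p lean on the spread of all genes (28.9 prior against 2 residual degrees of freedom) more than on the 3.31 between D1 and D6. The Cdk6 call was lost after quantile normalization and in limma fits without the trend or with a robust prior. The 5 measured genes on each side of Jun and the 5 that follow Cdk6 were looked up. Cdk6 is the first measured gene of chromosome 5 in the RefSeq gene table. Of these 15 neighbours, 0 separated the genotypes at least 2-fold, against 0.161% of all genes. The genotypes did not overlap for 5 of the 15, against 20.1% of all genes. Differences of the 15 ran from -0.74 (Hook1, beside Jun) to 0.45 (Ift74, beside Jun). Fam133b, the measured gene next to Cdk6, had -0.14.

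Rps6ka6 encodes RSK4, an X-linked relative of the ribosomal S6 kinases of the ERK pathway. It was at 9.73 in D1 and 9.20 in D6 against 5.04 in F2 and 6.17 in F4. Both knockout samples were high and both wild-type signals lay below the array medians, with a gap of 3.03 log2 units between the genotypes, the widest of the 19937 genes. The mean was 14.5-fold higher in knockout samples (log2 difference 3.86 ± 0.36, limma adjusted p = 1.45e-07); because the wild-type signals are near the bottom of the scale, the size is uncertain. Vat1l, which encodes a protein related to a synaptic vesicle membrane protein, was at 6.37 in D1 and 6.62 in D6 against 9.71 in F2 and 8.30 in F4. Both knockout signals were below the array medians and the genotypes did not overlap (log2 difference -2.51 ± 0.36, 5.69-fold lower, limma adjusted p = 0.000153). A 2-sided exact permutation test gave p = 0.333 for each of Jun, Cdk6, Rps6ka6 and Vat1l, the smallest value that the 6 assignments of 2 and 2 samples allow. Without F2 the differences of Rps6ka6 and Vat1l were 3.29 and -1.80, and that of Cdk6 was -3.13.

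**Figure D1:**
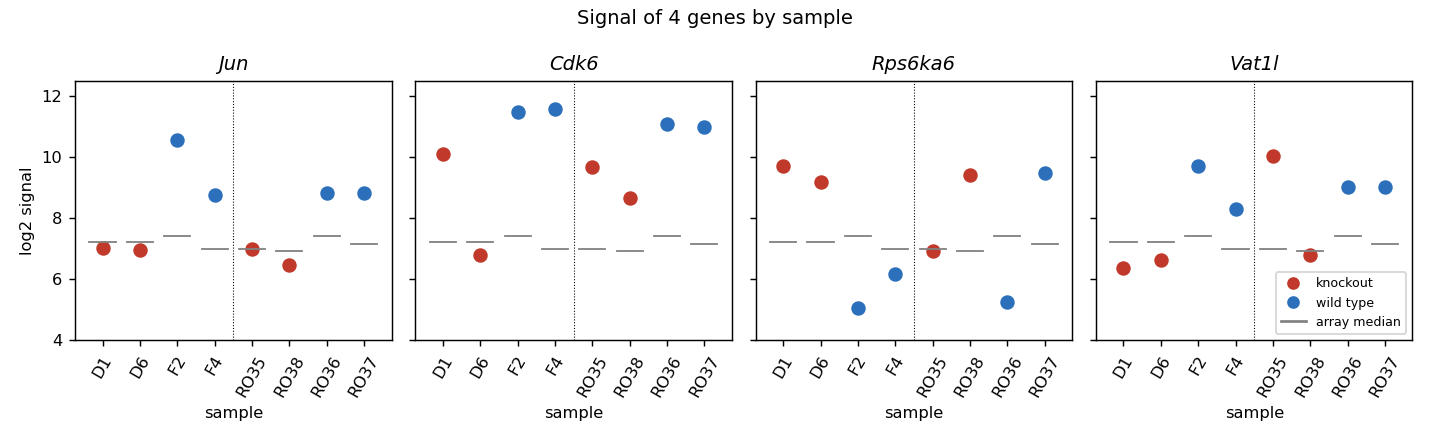
Log2 signal (y axis) of Jun, Cdk6, Rps6ka6 and Vat1l in each of the 8 samples (x axis), with knockout samples in red, wild-type samples in blue and a grey line at the median of each array. Left of the dotted line, in the D/F samples, the genotypes do not overlap for any of the 4 genes; Cdk6 in D1 (10.11) lies far above D6 (6.79), and in the RO samples to the right Rps6ka6 and Vat1l overlap between genotypes.

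Across all 19937 genes the genotypes were called separated where the lower of one pair of samples lay at least 1 log2 unit, a 2-fold step, above the higher of the other pair. This held for 32 genes (0.161%): 22 lower in knockout samples (0.11%) and 10 higher (0.0502%). With no minimum step the genotypes did not overlap for 4008 genes (20.1%), 2101 lower (10.5%) and 1907 higher (9.57%), and after quantile normalization for 6239 (31.3%). In the limma fit, 79 genes (0.396%) passed a Benjamini-Hochberg adjusted p of 0.05, 52 lower (0.261%) and 27 higher (0.135%). Of the 32 separated genes, chosen on the same 4 samples, 30 were among them. The number of limma calls moved with the scaling and with the fit. It was 0 after quantile normalization, without the trend or with only the brighter genes, and 1 (Slc35f2) with each array centred on its median. In a fit of all 8 arrays it was 1 (Zfp938). It also moved with 1 sample left out, most without F2, though 1 genotype then keeps a single sample. Why the calls were lost was not tested. Before adjustment, 756 genes (3.79%) had a limma p under 0.05, 427 lower (2.14%) and 329 higher (1.65%), and 678 after quantile normalization. Of the 32 separated genes, 29 were also separated after quantile normalization and 24 after centring.

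Among the 22 lower genes, Cdkn2a, which encodes the cell-cycle inhibitor p16INK4a and the p53 activator ARF, was at 8.37 in D1 and 7.65 in D6 against 9.50 in F2 and 9.49 in F4 (log2 difference -1.48 ± 0.27, limma adjusted p = 0.0036). Phlda3, a p53 target whose product restrains AKT, was at 7.18 and 7.09 in D1 and D6 against 8.89 and 9.48 in F2 and F4 (-2.05 ± 0.30, limma adjusted p = 0.000161). For both genes the wild-type samples lay together above the knockout samples. Tnfrsf10b, the death receptor for TRAIL and a p53 target, was at 6.45, 6.50, 7.66 and 7.98 in D1, D6, F2 and F4 (-1.35 ± 0.35). It separated the genotypes but did not pass limma (adjusted p = 0.0996). Zfp938, a zinc finger gene, had the widest gap among the lower genes: 6.77 and 6.39 in D1 and D6 against 9.08 and 9.62 in F2 and F4, a 6.84-fold lower level (-2.77 ± 0.31, limma adjusted p = 3.5e-06). Pja1, an X-linked gene for a RING ubiquitin ligase, was at 6.69 and 6.58 against 8.09 and 8.37 (-1.60 ± 0.33).

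Abcc1, an exporter of drugs and glutathione conjugates, was at 7.02 in D1 and 7.55 in D6 against 9.55 in F2 and 9.14 in F4, a 4.17-fold lower level (log2 difference -2.06 ± 0.29, limma adjusted p = 0.000125). Ephx1, the microsomal epoxide hydrolase, was at 7.39, 7.68, 9.32 and 9.64 in the same order (-1.95 ± 0.27, limma adjusted p = 0.000124). The solute carrier gene Slc35f2 was at 6.29, 6.47, 9.07 and 8.47 (-2.39 ± 0.33, limma adjusted p = 0.000124). In each of these the knockout samples differed by less than 1 log2 unit from each other. Egln3, a prolyl hydroxylase that marks hypoxia-inducible factors for breakdown, had -1.94 ± 0.34, Phka1, a regulatory subunit of phosphorylase kinase, had -1.78 ± 0.35, and the zinc transporter gene Slc39a11 had -1.42 ± 0.29.

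Lgr4, a receptor for R-spondins in WNT signalling, was at 5.67 in D1, 7.15 in D6, 8.56 in F2 and 8.91 in F4 (log2 difference -2.33 ± 0.38, limma adjusted p = 0.000701). Kirrel, an adhesion protein of the immunoglobulin superfamily, was at 7.98, 8.19, 9.63 and 9.83 in the same samples (-1.65 ± 0.25, limma adjusted p = 0.000275). Kirrel was steady within each genotype, whereas the knockout samples of Lgr4 differed by more than 1 log2 unit. The melanocortin receptor gene Mc1r had -1.53 ± 0.28, and Icosl, the ligand of the T-cell costimulator ICOS, had -1.27 ± 0.35 and did not pass limma (adjusted p = 0.155). Ogfrl1 was at 8.35 in D1, 6.07 in D6, 9.41 in F2 and 10.07 in F4 (-2.53 ± 0.41), with D6 far below D1 as for Cdk6. The last 3 were Cpne3, a calcium-dependent phospholipid-binding protein (-1.91 ± 0.40), and the predicted genes Gm5662 (-2.88 ± 0.47) and 3830406C13Rik (-1.67 ± 0.38). Cpne3 was at 5.75, 5.44, 8.19 and 6.81 in D1, D6, F2 and F4, Gm5662 at 4.78, 6.28, 9.39 and 7.44, and 3830406C13Rik at 6.06, 6.13, 8.34 and 7.18. F2 was the highest sample for all 3, and without it the differences were -1.22, -1.91 and -1.09. Mc1r, Slc39a11, Icosl, Gm5662 and 3830406C13Rik fell outside the naming rule and are given so that all members are accounted for.

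The 10 higher genes, with Rps6ka6, were Pcbd1, Rnf125, Apbb2, Ifi30, P2ry14, Uchl1, Gnpda2, Serf1 and Hvcn1. All 10 passed limma as deposited. Because limma reads the same 4 samples by which these genes were chosen, passing is no separate support. Pcbd1, an enzyme of tetrahydrobiopterin recycling that also binds the transcription factor HNF1, was at 11.13 in D1 and 9.95 in D6 against 8.09 in F2 and 6.51 in F4, a 9.42-fold higher level (log2 difference 3.24 ± 0.35, limma adjusted p = 2.29e-06). Apbb2, an adaptor that binds the amyloid precursor protein, was at 9.62 and 9.63 in the knockout samples against 7.61 and 6.84 (2.40 ± 0.29, limma adjusted p = 1.29e-05). The knockout samples of Apbb2 were nearly equal, whereas those of Pcbd1 differed by more than 1 log2 unit. The deubiquitinase gene Uchl1 was at 9.68, 8.87, 7.23 and 7.01 in D1, D6, F2 and F4 (2.15 ± 0.31, limma adjusted p = 0.000125). Vat1l, Apbb2 and Uchl1 belong to a list of 28 measured neuronal genes, of which 4 to 6 lay above the median of the tested genes in each sample.

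Rnf125, a ubiquitin ligase, was at 10.45 in D1 and 10.54 in D6 against 8.93 in F2 and 6.68 in F4 (log2 difference 2.69 ± 0.37, limma adjusted p = 0.000109). Ifi30, a lysosomal thiol reductase of antigen processing, was at 11.45 and 11.63 against 8.04 and 10.32 (2.36 ± 0.35, limma adjusted p = 0.000184). Without F2 the difference of Ifi30 was 1.22. In both genes the knockout pair was tight and the wild-type samples lay more than 2 log2 units apart. P2ry14, a receptor for UDP-sugars whose promoter is printed above, was at 9.74, 8.53, 6.85 and 7.04 in D1, D6, F2 and F4 (2.19 ± 0.34, limma adjusted p = 0.000304). Hvcn1, a voltage-gated proton channel of B cells, was at 9.84, 10.16, 7.76 and 8.83 (1.70 ± 0.28, limma adjusted p = 0.000678). Gnpda2, a glucosamine-6-phosphate deaminase, had 1.86 ± 0.35 and Serf1 1.73 ± 0.30. The higher genes thus spanned differences from 1.70 to 3.86, against -3.09 to -1.27 in the lower genes.

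**Figure D2:**
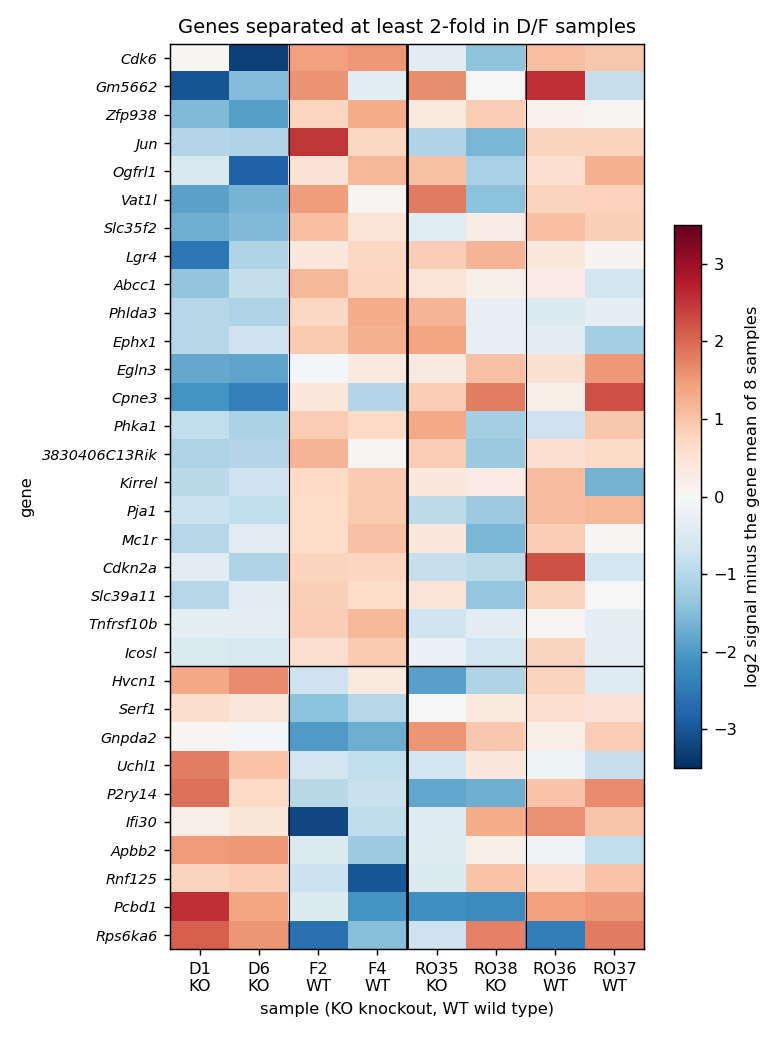
Log2 signal minus the mean of the gene over the 8 samples (colour, red higher and blue lower) for the 32 genes (rows) that separated the genotypes at least 2-fold in the D/F samples, in each sample (columns). The D and F columns are opposite in colour by the choice of the genes; in the RO columns, which the choice did not use, Jun, Cdk6 and Pja1 keep the direction while Pcbd1 and P2ry14 show the opposite one.

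Cytokine receptors and cell-cycle genes were also read through lists. Among 27 measured genes of STAT5 and cytokine signalling, 2 were called lower and 1 higher, and the genotypes did not overlap for 8 lower (29.6%, against 10.5% of all genes) and 1 higher (3.7%, against 9.57%). Over all genes 0.261% were called lower and 0.135% higher. The median difference of the list was -0.0896 against 0.0097 over all genes. Il2ra, the alpha chain of the interleukin 2 receptor, was at 6.10 in D1, 7.91 in D6, 11.06 in F2 and 8.30 in F4 (log2 difference -2.68 ± 0.50, limma adjusted p = 0.0048). Il7r, the interleukin 7 receptor of precursor B cells, was at 9.75, 8.96, 11.39 and 10.13 in the same samples (-1.40 ± 0.28, limma adjusted p = 0.00787). F2 was the highest sample for both receptors. For Il2ra, D1 lay 1.81 below D6 and F2 lay 2.76 above F4, a spread that its moderated SE of 0.50 does not convey. Ifngr1, a chain of the interferon gamma receptor, was at 11.62, 11.62, 11.04 and 10.51 (0.85 ± 0.18, limma adjusted p = 0.0215). Without F2 the differences were -1.29 for Il2ra and -0.77 for Il7r, both smaller in size, and 1.11 for Ifngr1, which was larger.

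Of 27 measured G1 genes, 2 were called lower (Cdk6 and Cdkn2a) and 0 higher, against 0.261% and 0.135% of all genes. The list median was -0.0634. Its genotypes did not overlap for 6 lower (22.2%, against 10.5% of all genes) and 3 higher (11.1%, against 9.57%). E2f6, a repressive E2F factor, was at 6.15 in D1, 8.58 in D6, 9.11 in F2 and 9.03 in F4, low in D1 only (limma adjusted p = 0.0707). Ccnd1, cyclin D1, which partners Cdk6, was at 11.75, 10.76, 10.74 and 9.76 (log2 difference 1.0 ± 0.25, limma adjusted p = 0.0878). Its genotypes were apart by 0.01 log2 units only. Cdk4, the other kinase of D-type cyclins, had a difference of 0.14 ± 0.13 and Cdk2 -0.04 ± 0.17. Of 27 measured p53 pathway genes, 17 were lower and 10 higher on average, and the median was -0.162 against 0.0097 over all genes. Of these, 1 was called lower (Phlda3), against 0.261% of all genes. The genotypes did not overlap for 7 lower (25.9%, against 10.5% of all genes) and 1 higher (3.7%, against 9.57%). Zmat3 was at 7.63 in D1, 8.36 in D6, 8.49 in F2 and 10.21 in F4 and did not pass limma (-1.35 ± 0.35, adjusted p = 0.111). Sesn1 had -0.53 ± 0.20 (limma adjusted p = 0.676).

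In the AP-1 family, 1 of 18 measured genes was called lower, Jun itself, against 0.261% of all genes. Junb had a log2 difference of 0.11 ± 0.26, Jund 0.13 ± 0.20, Fos 0.14 ± 0.36 and Atf3 0.30 ± 0.36. Of 26 other genes described as AP-1 targets, 0 were called at a limma adjusted p under 0.05. At an unadjusted p under 0.05, 2 were lower and 0 higher, against 2.14% and 1.65% of all genes. Hmox1, heme oxygenase, was at 8.55, 7.74, 9.39 and 9.18 in D1, D6, F2 and F4 (-1.14 ± 0.28, limma adjusted p = 0.0632). Its genotypes did not overlap. Among 23 measured DNA methylation enzymes and readers, 0 were called and 1 was lower at an unadjusted limma p under 0.05, against 2.14% of all genes. The genotypes of this list did not overlap for 5 lower (21.7%, against 10.5% of all genes) and 0 higher (against 9.57%). Dnmt1, the maintenance methyltransferase, was at 11.57, 11.62, 11.50 and 11.60 (0.04 ± 0.16), and Dnmt3a and Dnmt3b had -0.21 ± 0.23 and -0.17 ± 0.32.

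Il7r was the only one of 32 measured early B-cell genes to be called, against 0.261% of all genes called lower. The median of that list was -0.0351. Dntt, the terminal transferase, was at 9.24, 10.22, 7.64 and 9.58 in D1, D6, F2 and F4, and its genotypes overlapped (limma adjusted p = 0.373). Among 26 measured genes of mature B cells and MHC class II, 0 were called at a limma adjusted p under 0.05. At an unadjusted p under 0.05, 3 were lower and 6 higher, against 2.14% and 1.65% of all genes. The genotypes did not overlap for 6 with knockout higher (23.1%, against 9.57% of all genes) and 1 with knockout lower (3.85%, against 10.5%). Tnfrsf13c, the BAFF receptor, was at 10.76, 11.32, 10.03 and 10.37 (log2 difference 0.84 ± 0.20, limma adjusted p = 0.0613). Cd22, an inhibitory coreceptor, was at 8.76, 10.16, 8.49 and 8.57, high in D6 alone (0.93 ± 0.30, limma adjusted p = 0.378).

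Small differences ran one way in some lists of abundant transcripts. Of 26 measured histone genes, 22 were higher in knockout samples on average and 16 were higher without overlap (61.5%, against 9.57% of all genes). At a limma adjusted p under 0.05, 0 were called. At an unadjusted p under 0.05, 6 were higher, against 1.65% of all genes. H2bc18, a histone gene outside this list, was called higher (log2 difference 0.74 ± 0.16, limma adjusted p = 0.0275). The median difference of the list was 0.239 as deposited and 0.122 after quantile normalization. H2ac4 was at 12.25 in D1, 12.22 in D6, 11.74 in F2 and 11.87 in F4 (log2 difference 0.43 ± 0.15). Ribosome biogenesis genes had 14 of 33 higher without overlap (42.4%) and oxidative phosphorylation genes 15 of 40 (37.5%), with medians of 0.127 and 0.0699; after quantile normalization 22 of the 40 oxidative phosphorylation genes were higher on average and 18 lower. Of the housekeeping reference genes, 7 of 15 were also higher without overlap (46.7%), with a median of 0.0929 that was 0.0067 after quantile normalization, and the part of array scaling in these lists was not tested further. In the other direction, mitosis genes had 8 of 37 lower without overlap (21.6%, against 10.5% of all genes) and 0 higher, and cholesterol and fatty-acid synthesis genes 7 of 30 (23.3%) and 0. Their medians were -0.0621 and -0.0709. After quantile normalization the mitosis genes went from 27 lower and 10 higher on average to 22 and 15, and the cholesterol and fatty-acid genes from 20 and 10 to 17 and 13. Members named from these lists, such as Ube2c at -0.40 ± 0.18 and Fads2 at -0.47 ± 0.17, did not pass limma (adjusted p = 1 and 0.548).

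**Figure D3:**
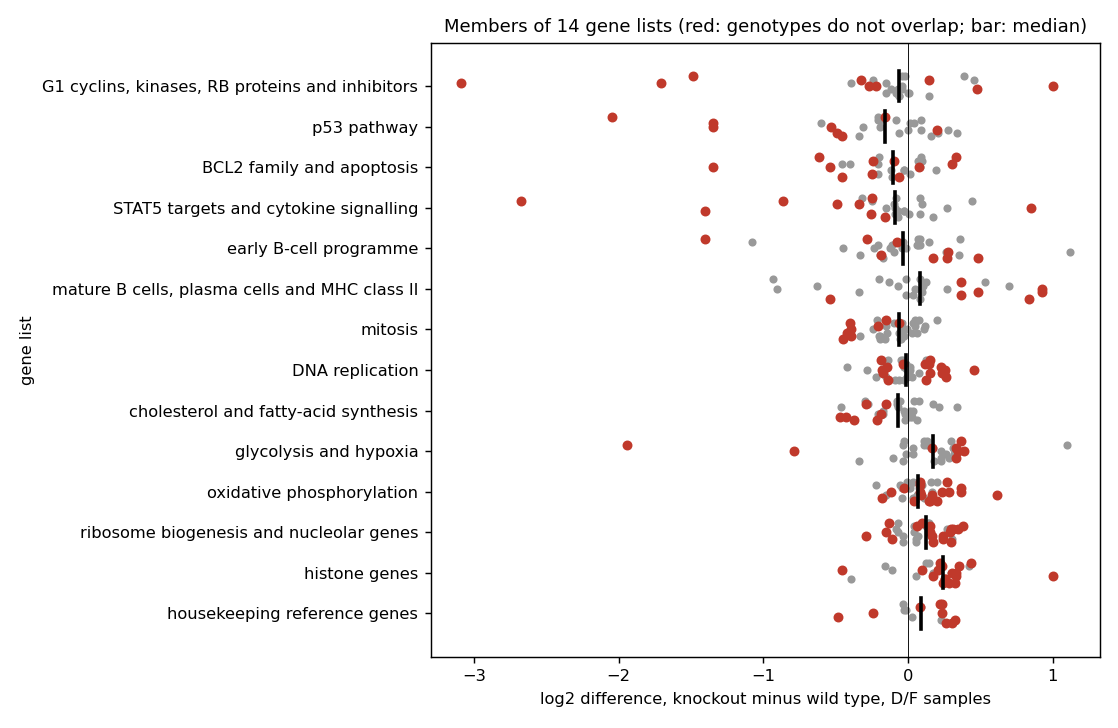
Log2 difference, knockout minus wild type, in the D/F samples (x axis) for each measured member of 14 gene lists (rows), with members whose genotypes do not overlap in red and the list median as a bar. Single genes such as Cdk6 (-3.09) and Phlda3 (-2.05) lie far from their lists, while the histone genes lie mostly to the right of 0 with a median of 0.239.

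The genotype pairing was set beside the other ways to split the same 4 samples 2 and 2. Separation of at least 2-fold held for 32 genes by genotype (0.161%), for 52 genes with D1 and F2 against D6 and F4 (0.261%), and for 29 with D1 and F4 against D6 and F2 (0.145%). After quantile normalization the counts were 33, 51 and 25, and after centring 30, 53 and 20. Without a minimum step, the genotypes did not overlap for 4008 genes (20.1%), and the other pairings for 7946 (39.9%) and 7983 (40.0%). These counts are not independent, because the 4 values of a gene are free of overlap in a single pairing only. They thus share out all 19937 genes. The array medians of D1 and D6 (both 7.22) lay between those of F4 (6.99) and F2 (7.42). After quantile normalization the shares were 31.3% by genotype, 33.0% and 35.5%, and after centring 24.8%, 37.7% and 37.5%. The part of array scaling in these shares was not tested further. Samples of one genotype also differed widely: 339 genes differed at least 2-fold between D1 and D6 and 800 between F2 and F4, 607 of them higher in F2, against 362 to 515 between samples of different genotype. F2 and F4 remained the pair with most differences after quantile normalization (611 genes).

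The genes with the widest gaps in the other pairings, picked by that gap, show how far single samples departed from their genotype. Marcks, a substrate of protein kinase C that binds actin, was at 9.60 in D1 and 10.25 in F2 but 5.32 in D6 and 5.33 in F4. Rnf130, a ubiquitin ligase, was at 10.79, 9.78, 6.31 and 6.52 in the same order. Their gaps, 4.26 and 3.26 log2 units, were wider than the 3.03 of Rps6ka6. Klrb1c, the NK1.1 receptor of NK cells, was at 8.93 in D6 and 10.54 in F2 against 6.78 in D1 and 6.02 in F4, whereas Ncr1, another NK receptor, was at 5.94 to 6.44 in all 4. Snx7, a sorting nexin, was at 8.23 in D6 and 8.73 in F2 against 5.80 in D1 and 5.52 in F4. Fn1, fibronectin, was high in D1 alone, at 10.06 against 7.03 in D6, 7.27 in F2 and 6.85 in F4.

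**Figure D4:**
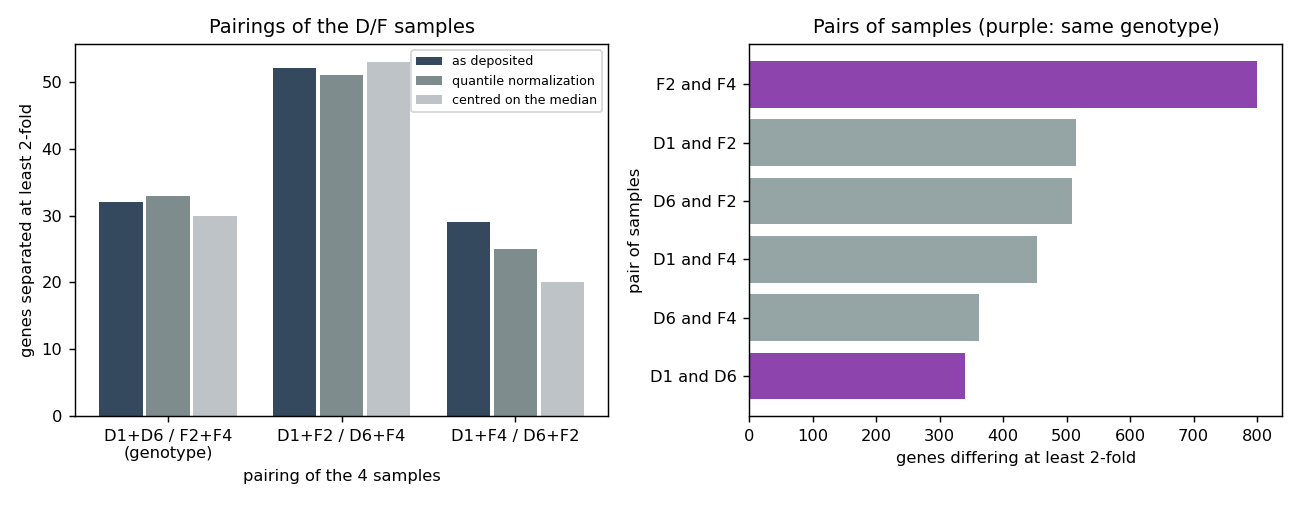
Left, number of genes separated at least 2-fold (y axis) for the 3 ways of pairing the 4 D/F samples (x axis), with values as deposited, quantile normalized or centred on the array median; right, number of genes differing at least 2-fold (x axis) between each pair of samples (y axis), with pairs of one genotype in purple. The genotype pairing has 32 genes as deposited, between the 29 and 52 of the other pairings, and F2 and F4 differ in 800 genes against 339 for D1 and D6.

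The RO samples, which share no sample with the D/F comparison, were used to look the 32 genes up. There, 19 of the 32 (59.4%) had the same sign. The 44.2% over all genes is for another mix of directions and is no match for this share. By direction, the sign matched for 15 of the 22 lower genes (68.2%) and 4 of the 10 higher genes (40%). Over all 19937 genes, 14647 were lower in the RO knockout samples and 5290 higher, so lower genes mostly share their sign there. The RO genotypes did not overlap in the same direction for 7 genes (21.9%, against 22.3% of all genes): Jun, Cdk6, Cdkn2a, Pja1, Slc35f2, Tnfrsf10b and Gnpda2. For Cdkn2a the RO difference of -1.67 came mostly from RO36: it was at 7.93 in RO35, 7.83 in RO38, 10.97 in RO36 and 8.13 in RO37. For Tnfrsf10b the genotypes were barely apart, with 6.43 in RO38 against 6.47 in RO37. The same held for Gnpda2, with 8.92 in RO38 against 8.87 in RO37. The RO genotypes did not overlap in the opposite direction for 8 (25%, against 31.9%): Zfp938, Lgr4, Phlda3, Ephx1, Hvcn1, P2ry14, Pcbd1 and Serf1. Some of these were barely apart: Phlda3 was at 7.89 in RO38 against 7.84 in RO37, and Ephx1 at 8.11 in RO38 against 8.02 in RO36. Serf1 was at 8.77 in RO38 against 8.92 in RO37, and Zfp938 at 8.66 in RO35 against 8.45 in RO36. Over all genes 45.5% were lower without overlap in the RO knockout samples and 8.7% higher, so the 22.3% and 31.9% depend on the mix of directions. Of the 22 lower genes, 6 (27.3%) did not overlap in the same direction, against 45.5%, and 4 (18.2%) in the opposite one, against 8.7%. Of the 10 higher genes, 1 (10%) did not overlap in the same direction, against 8.7%, and 4 (40%) in the opposite one, against 45.5%.

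Cdk6 in the RO samples was at 9.69 in RO35 and 8.66 in RO38 against 11.11 in RO36 and 11 in RO37 (log2 difference -1.88), and Jun had -2.10. For neither gene did the difference between the D/F and RO effects pass limma (interaction adjusted p = 0.716 for Cdk6 and 0.735 for Jun). Rps6ka6 was at 6.93 in RO35, 9.41 in RO38, 5.24 in RO36 and 9.47 in RO37, high in 1 sample of each genotype, with a difference of 0.81. Vat1l had -0.61, and its RO genotypes overlapped. The interaction did not pass for these genes either. It was 3.05 ± 1.57 for Rps6ka6 and -1.90 ± 1.13 for Vat1l (limma adjusted p = 0.716 for each). Over all genes the interaction passed for 6 (0.0301%; 5.39% before adjustment), and 3 of these separated the genotypes in the D/F samples: Pcbd1, P2ry14 and Zfp938. Pcbd1 was at 6.41 in RO35 and 6.32 in RO38 against 10 in RO36 and 10.08 in RO37, the reverse of its order in the D/F samples (interaction 6.91, limma adjusted p = 0.00636). P2ry14 was at 6.02 and 6.12 against 8.83 and 9.47, also reversed (5.27, limma adjusted p = 0.00636).

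**Figure D5:**
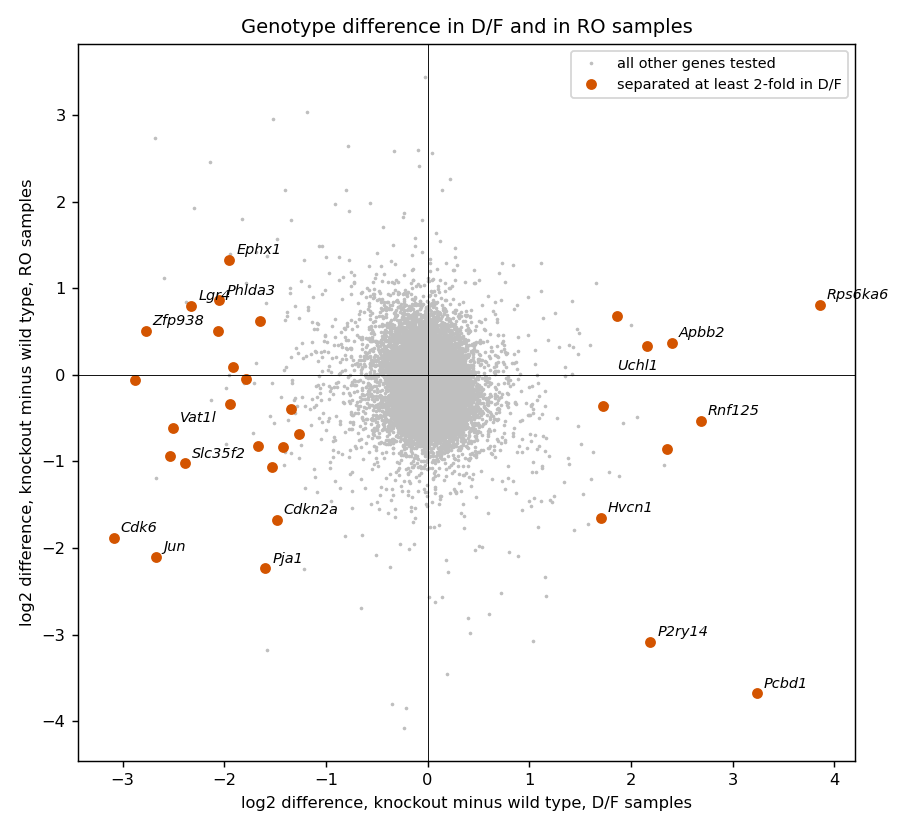
Log2 difference, knockout minus wild type, in the D/F samples (x axis) and in the RO samples (y axis) for 19937 genes in grey, with the 32 genes separated at least 2-fold in the D/F samples in orange. Jun, Cdk6, Cdkn2a and Pja1 lie at the lower left, lower in knockout samples of both schemes, while Pcbd1 and P2ry14 lie at the lower right, higher in D/F and lower in RO knockout samples. For Cdkn2a the RO difference comes mostly from RO36 (10.97, against 8.13 in RO37).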

How the data were processed

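RNA of B-lymphoid samples was labelled after random-hexamer priming and hybridised to MoGene 1.0 ST arrays, per the labels' protocols. The submitters' processing notes name MAS5. Its version, how probes were summarized, and the annotation used are unstated in the sources used here. On every array the trimmed mean of the deposited values, taken on the linear scale, was 499.8. As deposited by the authors, log2 values covered 34760 probe sets and were used unchanged; the log base was read from the values. No detection calls were used, so differences near the bottom of the scale are uncertain in size.

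Platform annotation gave 1 symbol for 21640 probe sets, several for 1321 and none for 11799, and 0 symbols needed updating. The single-symbol probe set of highest mean over the 4 D/F arrays represented each of 19937 genes. Groups came from the genotype label and titles. The fit used limma 3.58.1 in R 4.3.3 (lmFit, eBayes with trend) with genotype only, leaving 2 residual degrees of freedom, and Benjamini-Hochberg adjustment over all genes at 0.05. Each SE is the moderated SE of the limma coefficient. The difference between the D/F and RO effects was an interaction contrast in a fit of 8 arrays with 4 residual degrees of freedom. The scripts were tested on simulated data.

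The named genes were Jun, Cdk6, Rps6ka6 and Vat1l, up to 15 genes per direction of largest difference among separated genes with signal above the median, up to 4 per list by smallest limma p, up to 5 separated genes per direction of smallest interaction p, and the 5 genes of smallest p per direction, 139 in all, leaving out predicted, receptor-family and small RNA symbols. The members and the 32 lists (857 of 964 genes measured) were chosen with earlier results of these data known. Lists are described by counts and medians, with no set test. Alternatives were other scalings, a filter on dim genes, other choices of probe set, other priors, a fit of all 8 arrays, other gaps, every probe set and each sample left out. Pseudocounts did not apply to log2 values.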

Additional observations from a re-analysis of the deposited data

Results flagged for a closer look

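For 6 genes the difference between knockout and wild-type samples itself differed between the D/F and the RO samples in a limma fit of all 8 arrays (Benjamini-Hochberg adjusted p under 0.05 of the interaction; 0.0301% of genes, and 5.39% at an unadjusted p under 0.05). The interaction, the D/F log2 difference minus the RO one, was 6.91 for Pcbd1, with 3.24 in D/F and -3.67 in RO samples (limma adjusted p = 0.00636). For P2ry14 it was 5.27, with 2.19 and -3.08 (0.00636). For Emb, which encodes the adhesion protein embigin, it was 3.84, with -0.24 and -4.08 (0.00636); Emb was at 8.99 in RO36 and 8.93 in RO37 and at 4.38 to 5.13 in the other 6 samples. For Ctse, the aspartic protease cathepsin E, it was 3.64, with -0.21 and -3.85 (0.0142). For S100a11, a calcium-binding protein, it was 2.84, with 0.80 and -2.04 (0.00693). For Zfp938 it was -3.28, with -2.77 and 0.51 (0.0186).

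After quantile normalization the adjusted p was 0.0463 for Pcbd1, 0.0453 for Emb and 0.0141 for Ctse, and 0.13 for P2ry14, 0.0678 for S100a11 and 0.0765 for Zfp938. With each array centred on its median it was 0.0306 for Pcbd1, Emb and Ctse, 0.177 for P2ry14, 0.371 for S100a11 and 0.273 for Zfp938. The interactions kept their sign under both scalings. Why these genes differ between the naming schemes was not tested.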

How the results depend on the processing

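The 79 limma calls became 0 after quantile normalization, cyclic loess, without the trend, or with only the brighter genes; 1 with centring (Slc35f2, adjusted p = 0.0211); 1 in the fit of all 8 arrays (Zfp938, 0.0202); and 30 over every probe set. Leaving out 1 sample gave 0 to 112. The prior degrees of freedom were 28.9 as deposited and 3.19 after quantile normalization; the cause of the lost calls was not tested. The 756 genes at unadjusted p under 0.05 became 369 with only the brighter genes, 344 without trend, 376 with 8 arrays, 1497 over every probe set, and 441 to 3135 with 1 sample left out: 537 lower and 2598 higher without F2, 2141 lower and 647 higher without F4. Where 1 sample is left out, the lone sample of its genotype is assumed to vary like the others.

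Separated genes were 14 lower with only the brighter genes, 58 to 190 lower and 49 to 87 higher with 1 sample left out, 2101 and 1907 with a gap of 0, and 1 and 2 with a gap of 2 log2 units. For D1 and F2 against D6 and F4 the counts at those gaps were 7946 and 11, and for D1 and F4 against D6 and F2 they were 7983 and 5. At a gap of 0 the counts of the pairings are not independent, because each gene is counted in a single pairing.

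The differences of Jun, Cdk6, Rps6ka6 and Vat1l kept their direction but lost the call after quantile normalization (-2.69, -3.07, 3.79 and -2.56), centring (-2.66, -3.08, 3.87 and -2.50), cyclic loess (-2.64, -3.04, 3.86 and -2.50), and with the brighter genes, without trend and with 8 arrays, where they stayed at -2.67, -3.09, 3.86 and -2.51; Cdk6 also lost it with a robust prior (-3.09). With 1 sample left out they ran from -3.56 to -1.77, -4.74 to -1.43, 3.29 to 4.42 and -3.21 to -1.80.

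Of 139 named genes, 29 were called and 0 of these changed sign under any setting. Atp5b turned to -0.0015 after quantile normalization. With 1 sample left out, 21 uncalled genes changed sign, with log2 differences of Apobec1 -0.58 to 0.0076, Atf3 -0.49 to 1.09, Cd5 -0.89 to 0.41, Cd8a -0.42 to 0.054, Ddc -0.66 to 0.14, Fcgr3 -2.10 to 0.18, Fn1 -0.024 to 3.0, Grb10 -0.68 to 0.35, Klrb1c -2.68 to 1.84, Lyz2 -1.70 to 0.098, Mafk -0.72 to 0.041, Pcgf6 -0.22 to 3.0, Plau -0.049 to 0.94, S100a6 -2.26 to 0.37, Scd2 -0.024 to 0.71, Slamf1 -1.30 to 0.57, Slc2a3 -0.16 to 2.36, Suz12 -0.044 to 0.69, Sycp1 -0.14 to 0.64, Tal1 -0.21 to 1.06, Xist -5.55 to 0.19. No paired analysis was possible because the labels carry no replicate numbers.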

Other observations

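Beyond the genes of the naming rule, a family and a class of small RNAs appeared among the 79 genes called by limma and were picked after their values were seen. How many members of each were measured was not counted, so no share of them is given. Over all genes 0.261% were called lower and 0.135% higher, and 0 of the 79 stayed called after quantile normalization. Plscr1, Plscr2 and Plscr4 encode phospholipid scramblases. Plscr4 was at 6.51 in D1, 8.37 in D6, 10.85 in F2 and 8.79 in F4 (log2 difference -2.38 ± 0.44), and Plscr1 at 7.04, 10.11, 11.26 and 10.15 (-2.13 ± 0.47). Plscr2 went the other way, at 8.95, 7.51, 6.53 and 5.81 (2.06 ± 0.40). For Plscr1 and Plscr4 the low sample was D1. The carbonic anhydrase genes Car2 and Car13 were lower, at -1.95 ± 0.28 and -1.23 ± 0.23, with Car2 at 11.16 in D1, 9.54 in D6, 12.69 in F2 and 11.92 in F4.

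Among the 27 genes called higher were the small nucleolar RNAs Snora44 (0.62 ± 0.14), Snora73a (0.60 ± 0.14) and Snora74a (0.74 ± 0.17) and the histone gene H2bc18 (0.74 ± 0.16). The knockout samples of Snora44 were at 13.51 and 13.48 and the wild-type samples at 13.02 and 12.73. Bank1, an adaptor of B-cell receptor signalling, had -0.91 ± 0.20 in the D/F samples and 1.98 in the RO samples, and Prkcb, a protein kinase C of B cells, had -1.26 ± 0.22 and 0.65.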
